A study of Homo sapiens with 24 samples.

Results

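The genes described here encode the vesicle coats, cargo receptors, SNAREs and tethers that move proteins between the endoplasmic reticulum (ER) and the Golgi apparatus. They were chosen by gene symbol, 45 genes of the 25343 listed in each library, and all 45 passed the filter on low counts in both cell lines. By role they comprised 14 genes of the COPII coat and the ER exit sites, 11 of the COPI coat with its ARF GTPases and an ARF exchange factor, 13 cargo and retrieval receptors, and 7 SNAREs and tethers.

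RNA was sequenced from HCT116, a colon cancer line, and from A375, a melanoma line. The study concerns inhibition of PTDSS1 in cancer cells that have lost PTDSS2; these genes encode the phosphatidylserine synthases, which make phosphatidylserine by base exchange in the ER. Each line was used as its wild-type parent and as 1 clone with PTDSS2 knocked out (labelled KO#3 in HCT116 and KO#54 in A375), and each of these was kept for 24 h in DMSO, the vehicle, or in 0.1 µM DS07551382, the PTDSS1 inhibitor. The 8 groups held 3 libraries each, 24 in all. Since each line had 1 knockout clone, a property of the clone cannot be told apart from loss of PTDSS2. Nothing in the labels says whether the 3 libraries of a group came from separate cultures, so a p-value here speaks of the variation among these libraries alone, which could be technical.

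Secretory cargo leaves the ER in COPII vesicles: the GTPase SAR1 recruits the inner coat of SEC23 and SEC24, SEC24 binds the cargo, and SEC13 with SEC31 forms the outer cage at exit sites organised by SEC16. COPI, a coatomer recruited by ARF GTPases, carries material back from the Golgi and returns escaped ER proteins, among them chaperones held by KDEL receptors. Tethers catch an arriving vesicle and SNAREs fuse it with its target membrane. Several of these genes are known targets of the transcription factors of the unfolded protein response, among them XBP1, ATF6 and the CREB3 family.

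Library totals ran from 6211629 to 11688267 counts. The HCT116 knockout libraries with inhibitor (6211629 to 7910753 counts) had the lowest mean total of the 8 groups and the A375 knockout libraries with inhibitor (9413904 to 11688267 counts) the highest, with single libraries of other groups inside both ranges. The 45 genes took between 0.6017% and 0.8611% of a library's counts. Within a group, log2 levels of any pair of libraries correlated across genes with r between 0.9934 and 0.996, and no library stood apart. Of 11 colon epithelium markers, 8 were at 1 TPM or more in every HCT116 group, among them EPCAM, CDH1 and CDX2, while VIL1, CDX1 and LGALS4 were under 1 TPM; the markers summed to between 4500.15 and 5420.6 TPM. Of 10 melanocyte markers, 5 (SOX10, MITF, ERBB3, PAX3 and S100B) were at 1 TPM or more in every A375 group. MLANA, DCT and TYRP1 were under 1 TPM in every A375 group, and TYR was at 0 in every A375 library. Some markers did not keep to their line: PMEL and ERBB3 were at 1 TPM or more in every HCT116 group, PMEL was under 1 TPM in every A375 group, and KRT8, KRT18 and CLDN4 were at 1 TPM or more in every A375 group.

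PTDSS2 itself checks the labels. It measured 34.9 ± 2.26 CPM in the HCT116 parent with vehicle and 6.46 ± 1.19 CPM in the knockout (CPM, counts scaled to library size; mean ± SD, n = 3), a log2 fold change of -2.43 ± 0.11 (SE). In A375 it measured 23.7 ± 0.99 CPM in the parent and 0.90 ± 0.14 CPM in the knockout, a log2 fold change of -4.71 ± 0.18. Transcript that a knockout clone still makes says nothing of protein. With the inhibitor PTDSS2 rose in the A375 knockout by 0.89 ± 0.31 on the log2 scale, to 1.66 ± 0.41 CPM.

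In A375 knockout cells given the inhibitor, most of this machinery rose. Of the 45 genes 37 rose, 1 fell and 7 did not pass the test, where rose and fell mean an adjusted p under 0.05 in edgeR's quasi-likelihood test against the vehicle libraries of the same clone. Of the 13455 genes tested, 18.7% rose and 18.8% fell. The median log2 fold change of the 45 genes was 0.37, beside 0.01 over all genes tested. The rise ran through every role: 12 of 14 COPII and exit site genes, 9 of 11 COPI genes, 10 of 13 receptors and 6 of 7 SNAREs and tethers, with median log2 fold changes of 0.37, 0.32, 0.37 and 0.42. That is 82.2% of the members in the rising direction and 2.2% in the falling one.

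In TPM, which is corrected for gene length, the 45 genes together went from 5085.2, 5031.1 and 5034.2 TPM in the A375 knockout vehicle libraries to 6542.4, 6480.1 and 6570.2 TPM with the inhibitor. All 3 inhibitor libraries lay above all 3 vehicle libraries. COPII and exit site genes summed to 813 ± 7.3 TPM with vehicle and 1106 ± 20.7 TPM with inhibitor (SD, n = 3), and COPI genes to 2094 ± 5.6 and 2731 ± 14.8 TPM. Receptors went from 1758 ± 12.1 to 2185 ± 24.7 TPM, and SNAREs and tethers from 385 ± 7.5 to 509 ± 10.4 TPM. Other features of the A375 knockout libraries moved at the same time: the 10 melanocyte markers summed to between 386.82 and 407.12 TPM with vehicle and between 489.15 and 538.05 TPM with inhibitor, and the 11 colon markers to between 382.4 and 405.2 and between 303.14 and 331.01 TPM. Their part in the result was not tested.

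**Figure D1:**
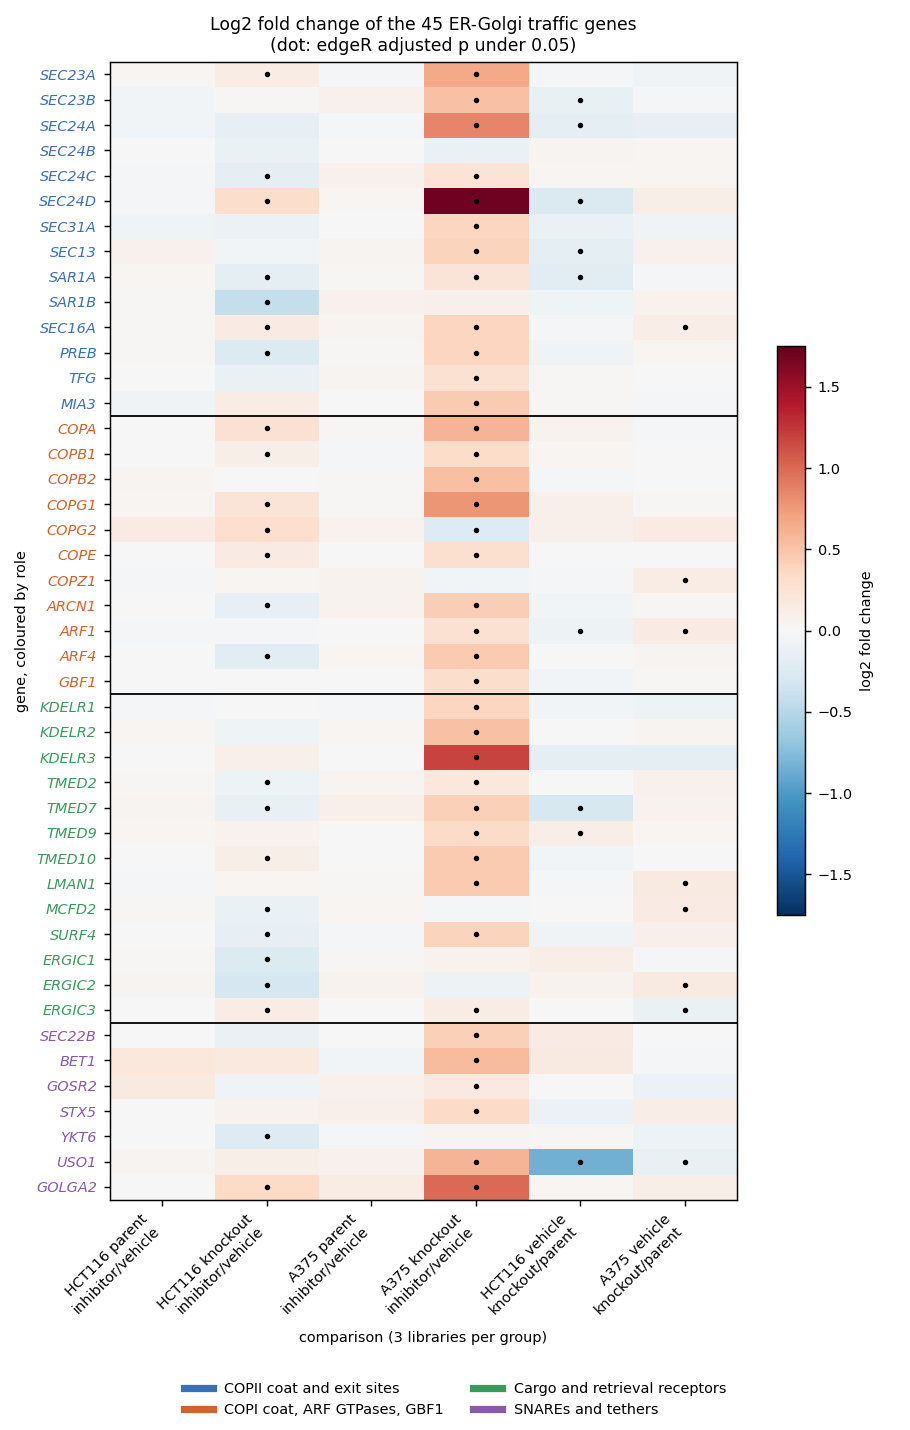
Heat map of the log2 fold change of the 45 genes (rows, coloured by role, lines between roles) in 6 comparisons (columns, 3 libraries per group); red is higher with inhibitor, or in the knockout for the last columns, blue is lower, and a dot marks an edgeR adjusted p under 0.05. The column of the A375 knockout is red in nearly every row, darkest for SEC24D at 1.70, the columns of the parents with inhibitor are pale and hold no dot, and USO1 is the darkest blue at -0.85 in HCT116 vehicle.

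Because so many of these genes moved together, their promoters were searched for motifs of the unfolded protein response and, beside them, for the cyclic AMP element and the amino acid response core. RefSeq promoter windows (build GRCh38.p14, 250 bases before to 50 after the listed start, 300 bases in all) were found for 39 of the 45 genes; SEC24D, ARF4, KDELR2, TMED9, ERGIC1 and USO1 had no entry. The motif TGACGTGG, the core of the unfolded protein response element, was searched on both strands. It was present in 10 of the 39 windows (25.6%) and in 153 of all 17504 promoter windows (0.87%). The shorter CCACG, which overlaps the reverse complement of that core, was present in 35 of 39 (89.7%) and in 43.15% of all windows. All windows here include those of genes not tested, and they were not matched to the members in level or base composition. No member window held the cyclic AMP element TGACGTCA, present in 2.5% of all windows. The ER stress element ERSE (CCAAT, then 9 free bases, then CCACG) was in 0.11% of all windows and ERSE-II (ATTGG, 1 free base, CCACG) in 0.07%, and neither was in a member window; the amino acid response core (TGATG, 1 free base, AAT), in 0.69% of all windows, was in none either. A match is a run of letters, not a shown binding site, and its part in the changes was not tested. The motifs were chosen with earlier results of these data known.

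The 11 matches, shown because this motif was found in a larger share of these windows than of all windows, follow with the 8 matching bases in capitals and 11 bases on either side, each read 5′ to 3′ along the gene's own strand. Windows with CCACGTCA carry the motif on the other strand. Coordinates are GRCh38.p14, and COPB2 has a pair of matches.
SEC23A, chr14:39103221-39103250, minus strand: tcccctcctctTGACGTGGcagaggcggcg
SEC24A, chr5:134648595-134648624, plus strand: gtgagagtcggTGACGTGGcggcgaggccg
SEC16A, chr9:136484707-136484736, minus strand: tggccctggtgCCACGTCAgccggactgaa
COPA, chr1:160343227-160343256, minus strand: gagagggtcgcTGACGTGGaggcgtccgaa
COPB1, chr11:14499841-14499870, minus strand: cccacccccttCCACGTCAgccaaggactc
COPB2, chr3:139389825-139389854, minus strand: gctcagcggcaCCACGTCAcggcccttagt
COPB2, chr3:139389632-139389661, minus strand: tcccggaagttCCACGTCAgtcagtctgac
ARF1, chr1:228082681-228082710, plus strand: cccggaggcgcTGACGTGGccgccgtcaga
GBF1, chr10:102245526-102245555, plus strand: gaggctagttaCCACGTCAgtgagctgaca
KDELR3, chr22:38468039-38468068, plus strand: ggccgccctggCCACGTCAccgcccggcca
STX5, chr11:62832049-62832078, minus strand: ttacgtgtaggTGACGTGGccgcttccagt
The match lay within 50 bases of the listed start in 9 of the 11 cases. All 10 genes with the motif rose in the A375 knockout, with log2 fold changes from 0.27 to 1.18 and a median of 0.45. Of the 29 genes whose window lacked it, 22 rose and 1 fell, with a median of 0.37, so genes rose with and without it. Among genes other than these 45 with the motif, 32 of 91 tested rose in the A375 knockout (35.16%) and 8 fell, beside 18.7% that rose among all 10673 genes without it. In the HCT116 knockout 4 of the 10 members with the motif rose and none fell, beside 6 that rose and 11 that fell of the 29 without it. There, 22 of the 92 other genes with the motif rose (23.91%) and 18 fell (19.57%), and of the 10404 genes without it 16.91% rose and 20.71% fell.

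The COPII cargo adaptors gave the largest change. SEC24D, a paralog of the cargo-binding subunit, measured 39.1, 35.6 and 38.3 CPM in the A375 knockout vehicle libraries and 125.7, 120.9 and 121.4 CPM with the inhibitor. The groups lay far apart, and the log2 fold change was 1.70 ± 0.05 (SE, adjusted p = 8.35e-35). SEC24A, its paralog, went from 71.5, 68.6 and 72.4 CPM to 129.5, 122.3 and 134.5 CPM, a log2 fold change of 0.86 ± 0.05. SEC24C rose by a log2 fold change of 0.23 ± 0.04, whereas SEC24B, at 52.6 CPM with vehicle and 48.6 CPM with inhibitor, did not pass the test (log2 fold change -0.11 ± 0.06, adjusted p = 0.167). Within the SEC24 family the paralogs thus ran from the largest rise of all 45 genes to no call.

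SEC23A and SEC23B encode the GTPase-activating subunit that pairs with SEC24. SEC23A went from 70.6, 69.2 and 68.0 CPM to 105.7, 112.3 and 110.8 CPM (log2 fold change 0.66 ± 0.05, adjusted p = 1.93e-18). SEC23B went from 106.9, 102.5 and 102.6 CPM to 157.2, 145.7 and 144.8 CPM (0.52 ± 0.04, adjusted p = 2.61e-16). Neither gene's groups overlapped. The outer cage genes SEC13 and SEC31A rose by 0.39 ± 0.04 and 0.37 ± 0.04 on the log2 scale, and the exit site scaffold SEC16A by 0.38 ± 0.04. MIA3, also called TANGO1, a receptor that fits large cargo such as collagen into COPII carriers, rose by 0.45 ± 0.05. PREB, the exchange factor that loads SAR1 with GTP, rose by 0.37 ± 0.05, and TFG, which organises exit sites, by 0.26 ± 0.04. Of the SAR1 GTPases, SAR1A rose by 0.23 ± 0.05, and SAR1B, at 66.3, 70.0 and 68.5 CPM with vehicle and 67.7, 75.3 and 73.9 CPM with inhibitor, had overlapping groups and no call (adjusted p = 0.211).

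Among the COPI genes, COPG1 encodes the gamma subunit of coatomer and led the rise. It measured 167.4, 150.7 and 162.4 CPM with vehicle and 271.5, 274.7 and 279.8 CPM with inhibitor (log2 fold change 0.78 ± 0.04, adjusted p = 1.33e-26). COPA, the alpha subunit, went from 365.9, 374.2 and 361.7 CPM to 563.1, 557.3 and 548.7 CPM (0.60 ± 0.03, adjusted p = 1.69e-26). COPB2, the beta-prime subunit, went from 235.4, 229.7 and 229.6 CPM to 326.4, 342.1 and 337.1 CPM (0.53 ± 0.03, adjusted p = 9.12e-22). For all 3 genes the inhibitor libraries lay above every vehicle library. The remaining coatomer genes that rose were ARCN1 (delta, 0.43 ± 0.03), COPB1 (beta, 0.32 ± 0.04) and COPE (epsilon, 0.28 ± 0.04). COPZ1, the zeta subunit, did not pass the test (-0.04 ± 0.04, adjusted p = 0.412).

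COPG2, the paralog of COPG1, was the 1 gene of the 45 that fell in the A375 knockout. It measured 33.4, 36.4 and 36.1 CPM with vehicle and 29.7, 30.4 and 30.2 CPM with inhibitor, a log2 fold change of -0.23 ± 0.07 (adjusted p = 0.00953), and DESeq2 did not call it. MEST, which overlaps COPG2 on the opposite strand, fell too (-0.55 ± 0.14, from 9.20 to 6.28 CPM), and since the strand setting of the counting is not given in the sources used here, reads from the overlap cannot be assigned. Of the small GTPases that recruit COPI, ARF4 rose by 0.45 ± 0.03 and ARF1 by 0.27 ± 0.03, and their exchange factor GBF1 rose by 0.31 ± 0.05.

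The retrieval receptors for ER chaperones rose as a family. KDELR3, the least abundant of the 3 KDEL receptors, measured 11.6, 10.5 and 11.2 CPM with vehicle and 27.0, 26.1 and 23.5 CPM with inhibitor, a log2 fold change of 1.18 ± 0.10 (adjusted p = 4.03e-15). KDELR2 went from 222.9, 206.7 and 223.8 CPM to 306.0, 310.3 and 318.2 CPM (0.51 ± 0.03, adjusted p = 6.61e-20), and KDELR1 rose by 0.37 ± 0.04. DDX17, which overlaps the end of KDELR3 on the opposite strand, went the other way (-0.19 ± 0.03). HSPA5, the ER chaperone BiP and the best-known KDEL protein, rose alongside from 1050.2 to 1781 CPM (0.76 ± 0.02).

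Of the p24 proteins, which link cargo to both coats, TMED10 went from 125.9, 132.4 and 128.5 CPM to 175.3, 180.3 and 174.0 CPM (log2 fold change 0.45 ± 0.04), and TMED7 from 213.1, 227.9 and 222.2 CPM to 289.9, 287.0 and 306.8 CPM (0.42 ± 0.03). Their groups did not overlap. TMED9 rose by 0.34 ± 0.04 and TMED2 by 0.19 ± 0.03. Part of TMED7 is shared with the readthrough gene TMED7-TICAM2, which measured 6.98 CPM with inhibitor. LMAN1, the lectin that carries coagulation factors out of the ER, went from 220.7, 211.4 and 211.5 CPM to 292.4, 297.8 and 295.1 CPM (0.46 ± 0.03). MCFD2, its partner in that complex, stayed between 209.1 and 221.2 CPM over all 6 libraries and was not called (-0.02 ± 0.04, adjusted p = 0.721). SURF4, another cargo receptor, rose by 0.39 ± 0.03 and ERGIC3 by 0.13 ± 0.04; the call for ERGIC3 was lost without A375 knockout vehicle replicate 2 (0.11) and without A375 knockout inhibitor replicate 1 (0.10). ERGIC1 (0.06 ± 0.04) and ERGIC2 (-0.08 ± 0.05) did not pass the test.

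On the receiving side, GOLGA2 encodes GM130, the cis-Golgi matrix protein that holds tethers in place. It went from 85.8, 81.4 and 90.5 CPM to 168.3, 177.4 and 169.3 CPM in the A375 knockout, a log2 fold change of 0.99 ± 0.04 (adjusted p = 3.19e-28). Its listed copies GOLGA2P7 and GOLGA2P10, which may share reads with it, did not pass the test (0.07 ± 0.08 and 0.08 ± 0.21). USO1, the tether p115 that binds GM130, went from 91.7, 90.4 and 90.0 CPM to 140.8, 132.3 and 136.9 CPM (0.59 ± 0.04, adjusted p = 2.92e-17). Of the SNAREs, BET1 went from 17.8, 19.4 and 20.2 CPM to 29.9, 29.5 and 25.6 CPM (0.56 ± 0.09). SEC22B, which has near-identical copies in the genome, rose by 0.42 ± 0.05, STX5 by 0.34 ± 0.07 and GOSR2 by 0.18 ± 0.05. YKT6, a lipid-anchored SNARE, was not called (0.05 ± 0.04, adjusted p = 0.360).

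**Figure D2:**
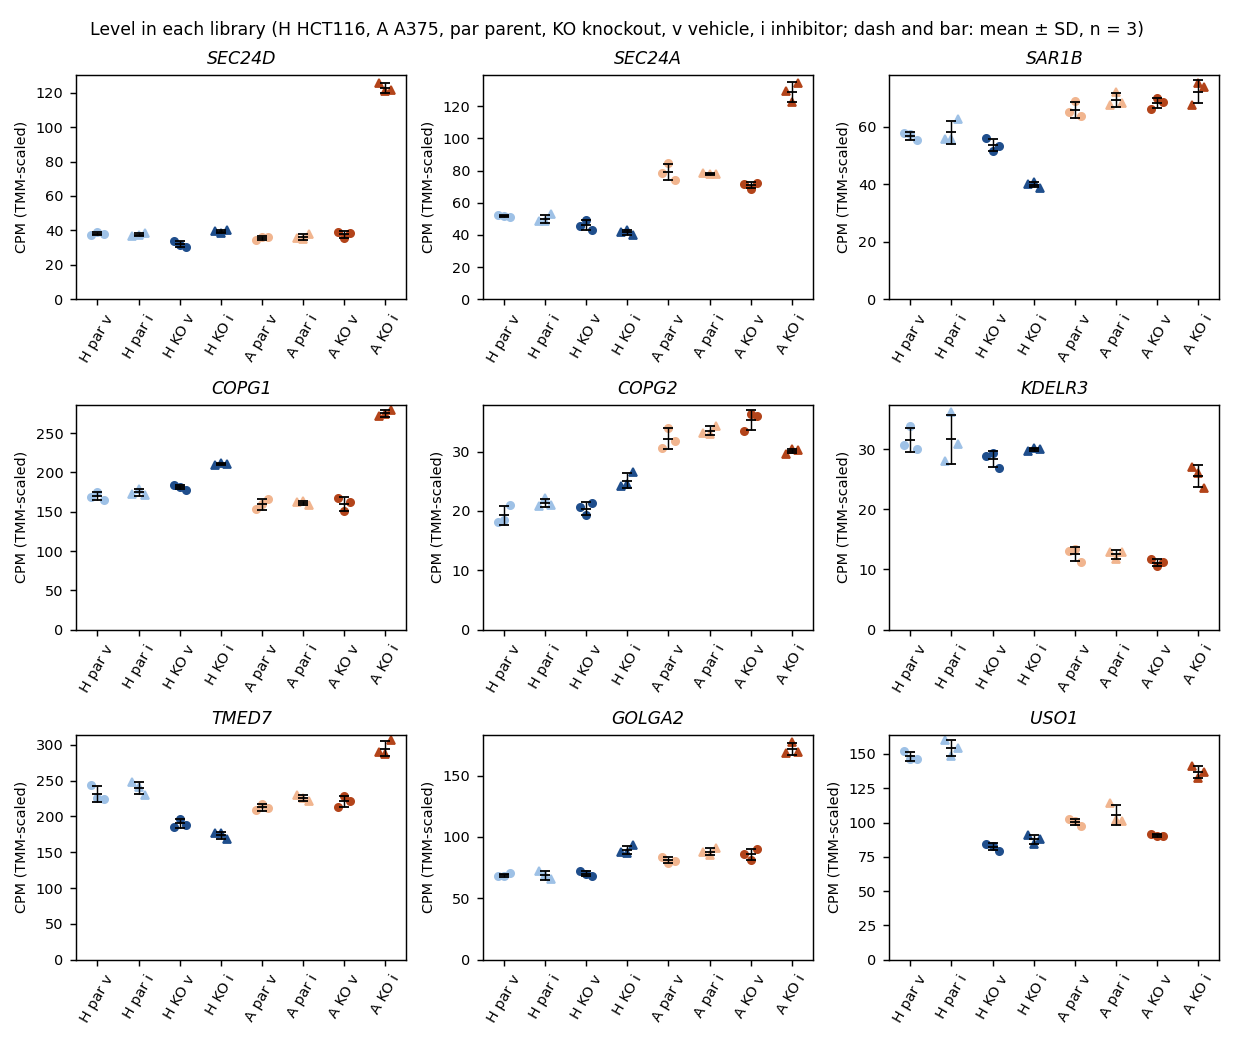
CPM (linear axis from 0) of 9 of the genes in each library of the 8 groups; circles are vehicle and triangles inhibitor, blue is HCT116 (H) and orange A375 (A), pale is the parent (par) and dark the knockout (KO), and the dash and bar are the mean ± SD of 3 libraries. SEC24D stands at 120.9 to 125.7 CPM in the A375 knockout with inhibitor beside 35.6 to 39.1 CPM with vehicle, SAR1B is lowest in the HCT116 knockout with inhibitor, and USO1 is lower in the HCT116 knockout than in its parent.

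The HCT116 knockout answered the same dose and time in a mixed way. Of the 45 genes 11 rose, 13 fell and 21 did not pass the test, next to 17.1% that rose and 20.1% that fell of the 13164 genes tested. The shares of members called, 24.4% up and 28.9% down, were not far above those of all genes, and the median log2 fold change was -0.01. By role, 3 COPII and exit site genes rose and 4 fell, 5 COPI genes rose and 2 fell, 2 receptors rose and 6 fell, and 1 gene of the SNAREs and tethers rose and 1 fell. The changes were small, between -0.42 and 0.35 on the log2 scale. In TPM the 45 genes summed to 4679 ± 22.8 with vehicle and 4621 ± 9.2 with inhibitor (SD, n = 3). The 11 colon markers summed to between 5163.43 and 5420.6 TPM with vehicle and between 4500.15 and 4588.43 TPM with inhibitor in these libraries, and the part of that shift in the result was not tested.

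The genes that rose in the HCT116 knockout were led by GOLGA2, which went from 72.4, 70.2 and 68.0 CPM to 88.1, 87.1 and 93.4 CPM (log2 fold change 0.35 ± 0.05, adjusted p = 2.08e-07). SEC24D went from 34.0, 31.4 and 30.7 CPM to 39.6, 38.5 and 40.0 CPM (0.30 ± 0.07, adjusted p = 0.000752). Neither gene's groups overlapped, and both had also risen in A375. COPA went from 225.3, 238.5 and 227.2 CPM to 277.6, 284.5 and 268.8 CPM (0.27 ± 0.04), and COPG1 from 183.8, 182.1 and 178.2 CPM to 209.4, 212.6 and 210.8 CPM (0.22 ± 0.04). Here COPG2 rose as well, from 20.6, 19.2 and 21.3 CPM to 24.2, 24.5 and 26.6 CPM (0.30 ± 0.09, adjusted p = 0.0093), while MEST did not pass the test (-0.13 ± 0.06). SEC23A rose by 0.12 ± 0.04, from 128.5, 132.6 and 138.9 CPM to 148.8, 143.7 and 141.6 CPM, and TMED10 by 0.11 ± 0.04, from 237.2, 240.6 and 237.9 CPM to 259.3, 257.6 and 250.4 CPM.

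SAR1B fell furthest in the HCT116 knockout. This SAR1 paralog is the one needed for chylomicron export in the gut. It measured 56.1, 51.7 and 53.3 CPM with vehicle and 40.1, 40.9 and 38.9 CPM with inhibitor, a log2 fold change of -0.42 ± 0.07 (adjusted p = 3.55e-07), and its groups did not overlap. ERGIC2 went from 55.9, 56.3 and 64.9 CPM to 47.8, 48.9 and 47.7 CPM (-0.29 ± 0.06, adjusted p = 0.000151). PREB fell by 0.24, ERGIC1 by 0.23, YKT6 by 0.23 and ARF4 by 0.18 on the log2 scale. TMED7 fell by 0.12, from 185.8, 197.0 and 187.9 CPM to 176.6, 176.6 and 168.3 CPM, and the readthrough gene TMED7-TICAM2 fell with it (-0.33 ± 0.12). MCFD2 fell by 0.12, from 119.9, 123.6 and 121.9 CPM to 116.5, 110.8 and 108.2 CPM. The calls for 11 of the 24 genes (SEC23A, SAR1A, SEC16A, COPB1, COPG2, COPE, TMED2, TMED7, TMED10, MCFD2 and ERGIC3) were lost under at least 1 alternative setting, which leaves 13 that held under each of those run. Leaving out any of the 6 HCT116 knockout libraries ended between 4 and 7 of these calls, with no change of sign, and the count called was then between 17 and 22.

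Several genes that led in A375 gave no call in the HCT116 knockout. SEC24A measured 45.6, 49.5 and 43.3 CPM with vehicle and 41.6, 43.2 and 40.0 CPM with inhibitor, a log2 fold change of -0.14 ± 0.07 (adjusted p = 0.0953). KDELR3 stayed between 26.8 and 30.2 CPM in all 6 libraries (0.08 ± 0.09), and KDELR2 went from 178.4, 186.2 and 182.5 CPM to 176.6, 173.8 and 168.4 CPM (-0.07 ± 0.04, adjusted p = 0.150). SEC23B (0.02 ± 0.04), COPB2 (0.01 ± 0.04), LMAN1 (0.03 ± 0.04), USO1 (0.10 ± 0.05) and BET1 (0.17 ± 0.11) had overlapping groups. HSPA5 gave 870.5 CPM with vehicle and 872 CPM with inhibitor (0.01 ± 0.03).

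Whether the inhibitor acted differently in the knockouts of the lines was tested directly, as the effect in A375 minus that in HCT116. The difference was positive for 37 of the 45 genes and negative for 1, beside 10.9% positive and 8.75% negative among the 14637 genes tested. The median difference was 0.39 on the log2 scale, and by role 13 of 14 COPII and exit site genes, 8 of 11 COPI genes, 10 of 13 receptors and 6 of 7 SNAREs and tethers were positive. SEC24D had the largest difference (1.40 ± 0.09, adjusted p = 4.59e-25), followed by KDELR3 (1.11 ± 0.13), SEC24A (1.01 ± 0.08) and GOLGA2 (0.65 ± 0.07). COPG2 was the gene with a negative difference (-0.52 ± 0.12, adjusted p = 0.000379). The 7 genes without a call were SEC24B, COPE, COPZ1, MCFD2, ERGIC2, ERGIC3 and STX5. The call for BET1 (0.40 ± 0.14, adjusted p = 0.0340) was lost with DESeq2, with limma-voom, and without HCT116 knockout vehicle replicate 1, HCT116 knockout inhibitor replicate 1 or 3, A375 knockout vehicle replicate 1, or A375 knockout inhibitor replicate 1 or 2, where it was between 0.31 and 0.41.

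Set side by side, 10 genes (22.2% of the 45) rose in both knockouts, beside 6.55% of the 12003 genes tested in both lines: SEC23A, SEC24D, SEC16A, COPA, COPB1, COPG1, COPE, TMED10, ERGIC3 and GOLGA2. A further 8 (17.8%, beside 1.80% of those genes) fell in HCT116 and rose in A375, namely SEC24C, SAR1A, PREB, ARCN1, ARF4, TMED2, TMED7 and SURF4, and COPG2 did the reverse, as did 1.30% of all genes. SAR1B, MCFD2, ERGIC1, ERGIC2 and YKT6 fell in HCT116 and had no call in A375 (11.1% of the 45, beside 9.67%). SEC24B and COPZ1 were called in neither knockout, and the other 19 rose in A375 with no call in HCT116 (42.2%, beside 10.2%). Among the 10 that rose in both, the tested difference between lines was called, with the larger rise in A375, for all but COPE and ERGIC3; ERGIC3 gave 0.14 ± 0.05 in HCT116 and 0.13 ± 0.04 in A375.

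**Figure D3:**
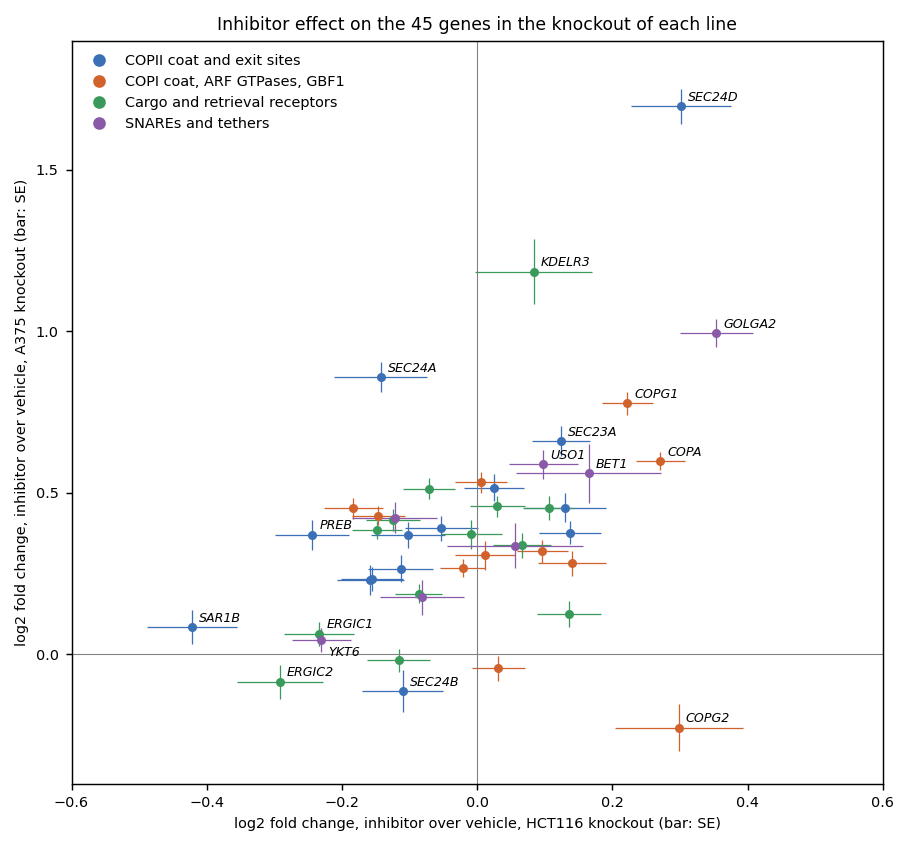
Log2 fold change with inhibitor in the HCT116 knockout (horizontal axis) against that in the A375 knockout (vertical axis) for the 45 genes, coloured by role, with bars of ± 1 SE and some genes named. Most points lie above 0 on the vertical axis and are spread on both sides of 0 on the horizontal axis; SEC24D is highest at 1.70 against 0.30, and COPG2 is at -0.23 against 0.30.

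In the parent lines, which keep PTDSS2, none of the 45 genes was called with the inhibitor. Of all genes tested, 0.00% rose and 0.00% fell in the HCT116 parent, and 0.0372% rose and 0.0669% fell in the A375 parent. At an unadjusted p under 0.05 there was 1 of the 45 genes in HCT116 and 2 in A375. Over all genes tested there were 530 of 13164 in HCT116 and 884 of 13455 in A375. DESeq2 and limma-voom also called 0 of the 45 genes in either line. SEC24D measured 37.4, 39.3 and 37.8 CPM with vehicle and 36.7, 37.5 and 38.7 CPM with inhibitor in the HCT116 parent (log2 fold change -0.02 ± 0.07). In the A375 parent it measured 34.3, 36.3 and 36.2 CPM with vehicle and 35.6, 35.2 and 37.9 CPM with inhibitor (0.03 ± 0.07). Over the 45 genes the log2 estimates ran from -0.07 to 0.18 in the HCT116 parent and from -0.05 to 0.12 in the A375 parent. The estimate furthest from 0 in the A375 parent was that of GOLGA2 (0.12 ± 0.05, adjusted p = 0.636).

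The inhibitor's effect in the knockout minus its effect in the parent of the same line was tested as well; it rests on the same knockout libraries as the comparisons above. In A375, 34 of the 45 genes had a positive difference and 1, COPG2, a negative one, beside 13.3% and 14.0% of all genes. The COPG2 call was lost under 9 of the 20 alternatives run, DESeq2 among them. The 10 without a call were SEC24B, SAR1B, COPZ1, MCFD2, ERGIC1, ERGIC2, ERGIC3, GOSR2, STX5 and YKT6. All 12 COPII genes and 9 COPI genes that rose in the knockout were among the 34. SEC24D gave 1.67, KDELR3 1.19 and GOLGA2 0.87 on the log2 scale. In HCT116, 4 genes had a positive difference (SEC24D 0.33 ± 0.10, COPA 0.27 ± 0.05, COPG1 0.19 ± 0.05 and GOLGA2 0.35 ± 0.08) and 11 a negative one, beside 11.1% and 13.8% of all genes. SAR1B (-0.45 ± 0.09) and ERGIC2 (-0.34 ± 0.09) were the most negative. Of these 15 HCT116 calls, 8 held under each alternative run. DESeq2 did not call SEC24D, SAR1A, ARCN1, SURF4 or GOSR2.

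Without any inhibitor, the shares of these genes called between knockout clone and parent, in both directions together, were near those of all genes; the HCT116 calls were mostly lower in the clone. In HCT116 the knockout was above the parent for 1 gene and below it for 8, beside 10.5% and 10.8% of all genes tested. USO1 stood out: it measured 152.1, 146.3 and 146.0 CPM in the parent and 84.6, 82.9 and 79.5 CPM in the knockout, with no overlap, and the log2 fold change was -0.85 ± 0.05 (adjusted p = 2.24e-25). The other 7 lower genes were TMED7 (-0.28 ± 0.04), SEC24D (-0.25 ± 0.07), SAR1A (-0.19 ± 0.05), SEC13 (-0.17 ± 0.05), SEC24A (-0.16 ± 0.06), SEC23B (-0.13 ± 0.04) and ARF1 (-0.10 ± 0.03), and TMED9 was higher (0.11 ± 0.04). In the A375 clone USO1 was lower by 0.14 ± 0.05 on the log2 scale than in its parent, 90.7 beside 100.4 CPM. With the inhibitor USO1 measured 154.1 ± 5.67 CPM in the HCT116 parent and 87.7 ± 3.42 CPM in the HCT116 knockout, so the gap between parent and clone was there under both treatments. The HCT116 count came to 5 without HCT116 parent vehicle replicate 1, where SEC23B, SEC24A, ARF1 and TMED9 were not called. Of the 9 HCT116 calls, 4 held under each alternative run, those of USO1, TMED7, SEC24D and SAR1A. DESeq2 did not call SEC23B, SEC24A or TMED9.

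In A375 the knockout was above the parent for 6 genes and below it for 2, beside 9.54% and 6.78% of all genes tested. This split depends on the scaling: with library size alone 3 genes were above and 6 below, and the median of the 45 went from 0.02 to -0.02. Over all genes the split was 1284 above and 912 below, and with library size alone 821 and 1320. DESeq2 called 3 above and 0 below. The higher genes were ERGIC2 (0.16 ± 0.06), LMAN1 (0.15 ± 0.04), MCFD2 (0.15 ± 0.04), ARF1 (0.14 ± 0.03), COPZ1 (0.13 ± 0.04) and SEC16A (0.11 ± 0.04), and the lower ones USO1 and ERGIC3 (-0.12 ± 0.04). Over all 45 genes the estimates ran from -0.16 to 0.16. LMAN1 and ARF1 were the 2 whose calls held under each alternative run, and the count fell to 3 without A375 parent vehicle replicate 3, to 4 without A375 parent vehicle replicate 1, to 4 without A375 knockout vehicle replicate 2 and to 5 without A375 knockout vehicle replicate 1.

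The parent lines differed in the level of most of these genes, as they did for most genes tested (11978 of 14637). With vehicle, A375 was above HCT116 for 27 of the 45 genes and below it for 13, beside 42.2% and 39.6% of all genes tested; SEC24D, SEC13, PREB, COPB1 and TMED2 were not called. COPA, the gene with the smallest adjusted p, measured 220.0 ± 2.38 CPM in HCT116 and 380.3 ± 3.68 CPM in A375 (log2 fold change 0.79 ± 0.03). ERGIC1 (0.78 ± 0.04), COPE (0.77 ± 0.04) and COPG2 (0.74 ± 0.08) were also higher in A375, and KDELR3 (-1.33 ± 0.10), TMED10 (-0.92 ± 0.04), SEC23A (-0.89 ± 0.05) and KDELR1 (-0.77 ± 0.05) were lower. KDELR3 and SEC23A thus began lower in A375, and KDELR3 with inhibitor in the A375 knockout (25.5 ± 1.81 CPM) stood beside 31.5 CPM in the HCT116 parent with vehicle, and SEC23A (109.6 ± 3.48 CPM) beside 135.2 CPM. SEC24D began at 35.6 CPM in A375 and 38.2 CPM in HCT116, which did not pass the test (adjusted p = 0.161).

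Per length, the abundance of these genes spanned a wide range. ARF1 was the most abundant in both parents with vehicle, at 556 TPM in HCT116 and 582 TPM in A375, followed by the p24 protein TMED2 at 348 and 322 TPM. BET1 was the least abundant in both, at 10.5 and 12.9 TPM. SEC24D ranked near the bottom, at 19.5 TPM in HCT116 and 17.6 TPM in A375, and reached 60.5 TPM in the A375 knockout with inhibitor.

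Several of the subunits come as paralogs, and some of their shares of the family's TPM differed with the inhibitor in the knockout clones. These shares are a description, with no test. SEC24D made up 14.5%, 13.5% and 14.5% of the SEC24A to SEC24D total in the A375 knockout vehicle libraries and 30.7%, 30.2% and 29.4% with inhibitor, while the family total went from 129 ± 1.98 to 201 ± 5.87 TPM. In the HCT116 knockout the SEC24D share went from 14.1 ± 0.88% to 18.2 ± 0.87% (SD, n = 3), and the family total from 115 ± 0.54 to 109 ± 2.59 TPM. SEC24D thus made up a larger share of its family with inhibitor in both clones, while the family total was higher with inhibitor in A375 and lower in HCT116. In the HCT116 parent the SEC24D share was 16.3% with vehicle and with inhibitor, above the 14.1% of the clone with vehicle. In the A375 parent it was 13.4% with vehicle and 13.3% with inhibitor. The COPG2 share of the COPG1 and COPG2 total went from 28.5 ± 1.96% to 16.5 ± 0.18% in the A375 knockout, where the total went from 144 ± 3.75 to 216 ± 4.31 TPM, COPG1 from 103 to 180.5 TPM and COPG2 from 41.0 to 35.7 TPM. The COPG2 share was at 17.5 ± 1.26% and 17.7 ± 0.75% in the HCT116 knockout. KDELR3 went from 5.09 ± 0.35% to 7.83 ± 0.54% of the KDEL receptors in the A375 knockout. SEC23A held 35.8 ± 0.28% and 38.1 ± 1.70% of the SEC23 total there, and SAR1B 21.9 ± 0.61% and 20.3 ± 0.55% of the SAR1 total. In the HCT116 knockout the SAR1B share was 17.2 ± 1.43% with vehicle and 14.6 ± 0.32% with inhibitor.

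**Figure D4:**
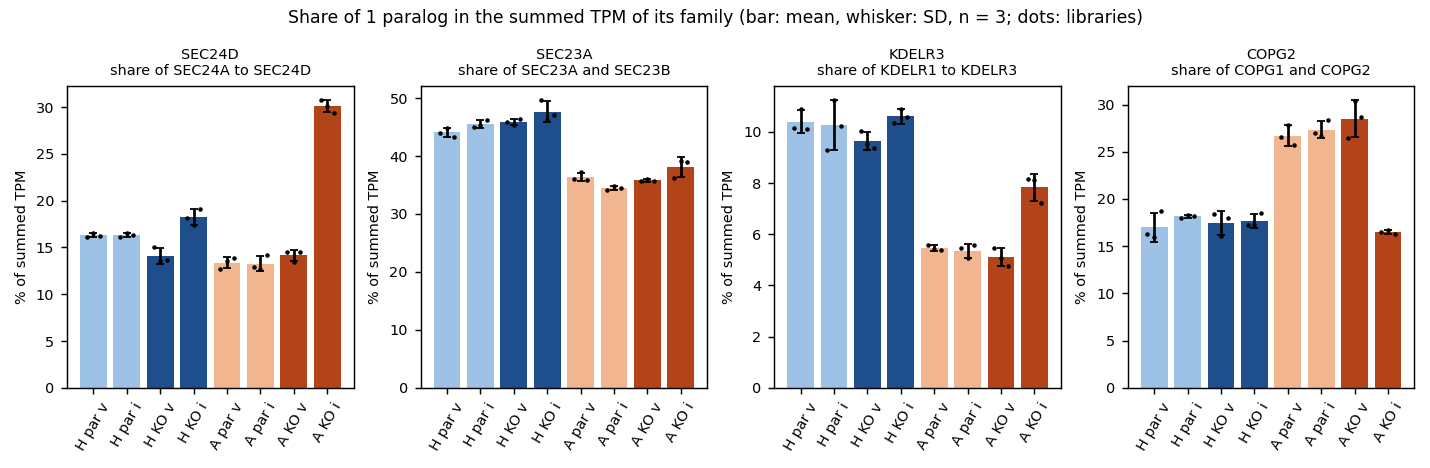
Share of the family's summed TPM (percent, axis from 0) held by SEC24D, SEC23A, KDELR3 and COPG2 in each of the 8 groups (H HCT116, A A375, par parent, KO knockout, v vehicle, i inhibitor); bars are means, whiskers SD and dots the 3 libraries. The SEC24D share is highest in the A375 knockout with inhibitor, at 30.1% beside 14.1% with vehicle, and the COPG2 share there is 16.5% beside 28.5%.

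A wider list of 65 other ER-Golgi genes, 64 of them tested in each line, was counted beside them, with no test between the lists. In the A375 knockout 24 rose (37.5%) and 3 fell (4.7%), beside 18.7% and 18.8% of all genes, with a median log2 fold change of 0.10. In the HCT116 knockout 8 rose (12.5%) and 5 fell (7.8%), beside 17.1% and 20.1%, with a median of -0.02. ARFGAP3, which switches off ARF1 on COPI vesicles, rose in both (0.79 ± 0.08 in A375 and 0.31 ± 0.10 in HCT116). The Golgi SNARE BET1L rose in A375 (0.69 ± 0.06), while ARFGAP2 fell slightly (-0.14 ± 0.05). CUL3, the ubiquitin ligase scaffold that helps COPII carriers grow for collagen, fell in both, by 0.23 in A375 and by 0.24 in HCT116. In A375 the TRAPP tether subunit TRAPPC5 fell as well (-0.22 ± 0.07). In HCT116 the SEC23-binding SEC23IP fell by 0.26 and the tether ZW10 by 0.23; neither passed the test in A375.

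Of 11 transcription factors of the unfolded protein response and secretory capacity, 10 were tested. In the A375 knockout 8 rose and none fell, beside 18.7% and 18.8% of all genes, and in the HCT116 knockout 7 rose and none fell, beside 17.1% and 20.1%; CREB3L1 was not tested. XBP1 went from 64.1 to 124.5 CPM in A375 (log2 fold change 0.96 ± 0.05) and from 49.9 to 74.4 CPM in HCT116 (0.58 ± 0.06). ATF4 rose by 0.45 ± 0.03 in A375 and by 0.72 ± 0.03 in HCT116, and its target DDIT3, also called CHOP, by 1.01 ± 0.09 and 2.06 ± 0.13. CREB3L4 rose by 0.47 ± 0.15 and 0.52 ± 0.13. By the tested difference between knockouts, 3 of the 10 had the larger effect in A375 and 4 in HCT116, beside 10.9% and 8.75% of all genes. PTDSS1, the inhibitor's target, fell in both knockouts, from 106.1 to 77.2 CPM in HCT116 (-0.45 ± 0.05) and from 175.5 to 161.5 CPM in A375 (-0.12 ± 0.04). Levels of RNA say nothing of splicing of XBP1 or of cleavage of ATF6 and the CREB3 proteins, which were not measured here.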

How the data were processed

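Poly(A) RNA of 24 libraries was sequenced after preparation with an NEBNext Ultra RNA kit, per the labels' protocols. STAR 2.4.2a and RSEM 1.2.23 with build hg19 are named in the submitters' processing notes; the sources used here name no annotation release, strand setting or filter. Per the file headers, the authors deposited RSEM's expected counts for each gene together with TPM values, which are scaled for length and depth. Reads matching several genes are shared out in such estimates. Of the 25343 listed genes, 25220 were named through a RefSeq table of GRCh38.p14; the 123 unnamed held at most 0.0724% of a library and stayed in the totals.

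Expected counts were rounded, scaled with TMM, filtered with edgeR's default (minimum count 10, minimum total 15) and tested with edgeR 4.0.16 in R 4.3.3 (quasi-likelihood F test, robust, two-sided, Benjamini-Hochberg over all genes tested, threshold 0.05). The 12 libraries of a line were fitted together with a mean per group, and comparisons between lines over all 24. SE was the log2 fold change divided by the square root of F. CPM used TMM over all 24 libraries, and TPM served for levels between genes and for paralog shares. Values in every library are given for members called with a log2 fold change of at least 0.5 in a knockout inhibitor comparison or among the 3 largest called in another comparison, and for COPG2, picked after its values were seen. Other genes were named where they had the 4 largest called rises or 3 largest called falls, beside PTDSS1, PTDSS2 and HSPA5; MEST, DDX17, TMED7-TICAM2 and the GOLGA2 copies were added for shared sequence. Alternatives were other scalings and filters, DESeq2 1.42.0, limma-voom (limma 3.58.1), other sets of libraries, leaving out each library in turn, and a block for the replicate number. The test was also run on simulated counts with far fewer changed genes than were called in the knockouts, and no result here rests on that run. The members, lists and motifs were chosen with earlier results of these data known.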

Additional observations from a re-analysis of the deposited data

Results flagged for a closer look

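For 38 of the 45 genes the effect of the inhibitor differed between the knockouts of A375 and HCT116 in the test of the difference itself. Of all 14637 genes tested, 2880 differed. The values that follow are log2 differences, A375 minus HCT116. Among COPII and exit site genes they were SEC24D 1.40, SEC24A 1.01, PREB 0.62, SEC23A 0.54, SAR1B 0.51, SEC23B 0.50, SEC31A 0.48, SEC13 0.45, SEC24C 0.39, SAR1A 0.39, TFG 0.38, MIA3 0.33 and SEC16A 0.24. Among COPI genes they were ARF4 0.64, ARCN1 0.58, COPG1 0.56, COPB2 0.53, COPA 0.33, GBF1 0.30, ARF1 0.29 and COPB1 0.23, and COPG2 went the other way at -0.52.

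Among the receptors the differences were KDELR3 1.11, KDELR2 0.59, TMED7 0.55, SURF4 0.54, LMAN1 0.43, KDELR1 0.39, TMED10 0.35, ERGIC1 0.30, TMED2 0.28 and TMED9 0.28. SNAREs and tethers gave GOLGA2 0.65, SEC22B 0.55, USO1 0.50, BET1 0.40, YKT6 0.28 and GOSR2 0.26. For SEC24C, SAR1A, PREB, ARCN1, ARF4, TMED2, TMED7 and SURF4 the gene fell in the HCT116 knockout and rose in that of A375. The A375 knockout inhibitor libraries also had the highest mean total of the 8 groups and those of HCT116 the lowest, and depth's part in the differences was not tested.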

How the results depend on the processing

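No called gene changed sign under any alternative run, but balances near 0 did. Knockout against parent with vehicle in A375 went from 6 up and 2 down (median 0.02) to 3 and 6 (-0.02) with library size alone and to 5 and 3 with DESeq2 size factors, and that in HCT116 from 1 and 8 to 2 and 7 with library size alone. The median for the inhibitor in the HCT116 knockout went from -0.009 to 0.002 with library size alone. With each library left out in turn, the count of the 45 genes called ran from 17 to 22 for the inhibitor in the HCT116 knockout (24 with all libraries), from 37 to 38 in the A375 knockout (38), from 11 to 16 for knockout minus parent in HCT116 (15), from 32 to 36 for that in A375 (35), from 37 to 39 for A375 minus HCT116 (38), and from 39 to 40 between the parents (40). Knockout against parent with vehicle ran from 5 to 9 in HCT116 (9) and from 3 to 7 in A375 (8), and DESeq2 gave 3 and limma-voom 5 in A375; the cause was not tested. Of the calls, those that held under each alternative were 13 of 24 for the HCT116 knockout, 36 of 38 for the A375 knockout, 4 of 9 and 2 of 8 for knockout against parent, 8 of 15 and 31 of 35 for knockout minus parent, 37 of 38 between the knockouts and 38 of 40 between the parents. COPG2 in the A375 knockout was -0.22 and not called by DESeq2. Without a low-count filter, the HCT116 knockout split was 7 up and 14 down, beside 11 and 13.

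Deviations from the group means correlated weakly between libraries with equal replicate numbers, between -0.054 and 0.093 (median 0.009). For unequal numbers they correlated between -0.135 and 0.074 (median -0.008). Such overlapping ranges do not settle whether the numbers pair the libraries. With the replicate block the counts were 24, 38, 9, 8, 15, 35, 38 and 40 in the order HCT116 knockout, A375 knockout, knockout against parent in HCT116 and A375, knockout minus parent in HCT116 and A375, A375 minus HCT116, and the parents, the same as without it, and 0 in both parents with inhibitor. Over all genes, the block raised the calls for the inhibitor in the HCT116 knockout from 4889 to 4973. In the A375 knockout they went from 5048 to 5063. The HCT116 knockout libraries with inhibitor had the lowest mean total, and the smallest change called there was -0.09, for TMED2.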
